A study of Mus musculus with 2 samples.

Results

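The genes described here are 10 members of the lipase and lipid droplet pathway of macrophages, Pnpla2, Abhd5, G0s2, Lipe, Mgll, Lipa, Lpl, Dgat1, Dgat2 and Plin3. They were taken as a list by function, and every gene probe whose RefSeq accession belongs to 1 of them was read, which gave 16 probes and all 10 genes out of 20652 genes that could be named on the array. RNA came from bone marrow-derived macrophages (BMDMs), which are cells grown from mouse bone marrow with the growth factor M-CSF. The donors were 8-week-old male mice of the C57BL/6 background with the Crif1 gene flanked by loxP sites (Crif1 f/f), and no Cre driver is named for these cultures in the methods. One set of cells was untreated and the other received IL-4, a type 2 cytokine, for 18 h, and the dose is not given for this experiment. Each condition was labelled with Cy3 and hybridised to 1 Agilent single-colour mouse array, 2 arrays in all, so no difference below has a replicate check and no p-value is given.

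Lipid droplets store fatty acids as triacylglycerol and cholesterol as esters, in macrophages as in fat cells. The droplet store is built by the DGAT enzymes, coated by perilipins, and broken down in the cytosol by adipose triglyceride lipase (Pnpla2), hormone-sensitive lipase (Lipe) and monoacylglycerol lipase (Mgll) in turn. Lipoproteins bring lipid from outside, cut at the cell surface by lipoprotein lipase (Lpl) or, after uptake, in the lysosome by lysosomal acid lipase (Lipa). In macrophages activated by IL-4, fatty acids freed by lysosomal lipolysis are known as a fuel of mitochondrial oxidation.

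The largest differences among the 10 genes were those of Lpl and Mgll, in opposite directions. Lpl signal was 1.69-fold higher after IL-4, and Mgll signal was 1.73-fold lower. Lipa was 1.34-fold lower, G0s2 1.27-fold lower and Dgat1 1.25-fold lower. The other 5 genes, Pnpla2, Lipe, Abhd5, Dgat2 and Plin3, differed by at most 1.08-fold between the arrays at the probe that represents each gene. A spot that the scanner software marked as well above background is called detected here. No member reached 2-fold in either direction, whereas 3.06% of the 14070 genes detected on 1 or both arrays reached it upward and 3.35% downward. At 1.5-fold, 1 of 10 was higher (Lpl) and 1 of 10 lower (Mgll), against 6.36% and 8.95% of all these genes. The shares of the 10 genes lie near those of the background, so these counts are no result about the list.

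The intensity of a spot is the scanner software's background-subtracted fluorescence in arbitrary units. For the differences, log2 intensity was scaled by subtracting the 75th percentile of each array, and a difference is always IL-4 minus untreated on the log2 scale. A gene with several probes is represented by the brightest one, and for the 10 genes the other probes are given beside it. Every probe of these genes was printed in 1 spot, so the error quoted is the median standard deviation (SD) between spots of probes with like signal that were printed in 10 spots. This SD covers the spot and not the culture, the labelling or the hybridisation. Of the 16 probes, 15 were detected on both arrays, no spot was saturated and none was marked as an outlier. Because a probe's brightness depends on its own sequence, intensities are compared between the arrays and not between genes.

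**Figure D1:**
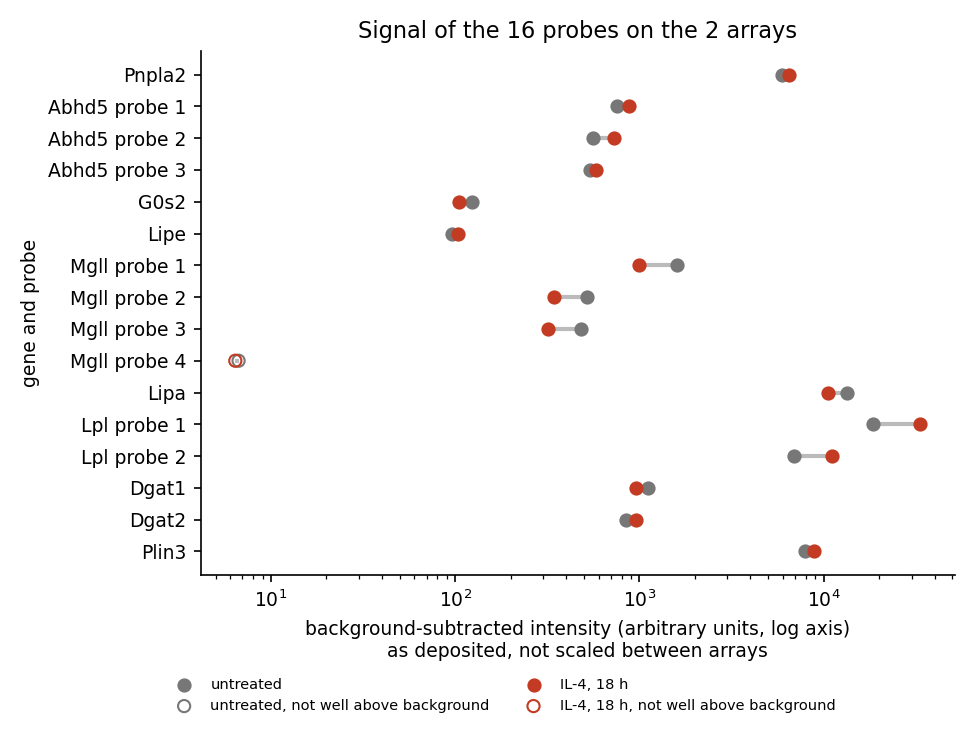
Background-subtracted intensity (arbitrary units, log axis) of each of the 16 probes in untreated BMDMs (grey) and in BMDMs given IL-4 for 18 h (red), 1 array each and not scaled between arrays. The widest gaps are at Lpl, where red lies to the right at both probes, and at Mgll, where red lies to the left at 3 probes, while the open circles mark the fourth Mgll probe, which was not detected on either array.

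Lpl encodes the secreted lipase that frees fatty acids from lipoprotein triacylglycerol. Its brightest probe read 18495 in untreated cells and 33538 after IL-4. The scaled difference was 0.76 with a spot SD of 0.052. The dimmer Lpl probe read 6886.5 and 11031, a difference of 0.58 with a spot SD of 0.051. Both probes were thus higher after IL-4, by 1.69-fold and 1.49-fold, and they differed from each other by more than the spot error. Of the 12741 genes detected on both arrays, 456 (3.58%) had a difference as high as that of Lpl or higher. Proteins that assist or restrain this enzyme were read from a list of 11 genes, of which 10 had a probe, and 0 passed 2-fold in either direction. Angptl4, a secreted inhibitor of Lpl, had the highest difference of that list at 0.43, from 4018 to 5784, and Apoc1, an apolipoprotein that also inhibits the enzyme, the lowest at -0.57, from 332 to 240. The median over the 8 list genes measured on both arrays was -0.14, where the median over all genes measured on both arrays was -0.014.

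Fat cells and stromal cells express Lpl as well, so markers of other cells were read beside it. Of 6 adipocyte markers, Adipoq and Cfd were detected on both arrays. Adipoq, the adiponectin gene, read 203 and 384, a difference of 0.82, and Cfd, the adipsin gene, read 35.4 and 68.3, a difference of 0.85 with a spot SD of 0.28. These are as large as the difference of Lpl and in the same direction. Plin1 and Retn were detected after IL-4 only, with Plin1 at least 1.14-fold higher and no fold for Retn, and Lep and Cidec on neither array. Plin1 and Cidec are also in the list of droplet proteins below. The summed intensity of the markers measured on both arrays was 238 in untreated cells and 452 after IL-4. All 5 fibroblast markers, collagen genes among them, were detected on both arrays, with differences between -0.34 (Col1a1) and 0.51 (Pdgfra). Their summed intensity was 324009 in untreated cells and 317060 after IL-4, of which Col1a2 alone gave 233342 in untreated cells. The sums given here add intensities that are not scaled between the arrays, unlike the differences. All 6 macrophage markers that could be matched were detected on both arrays, with Adgre1, the surface antigen used to identify mouse macrophages, at 0.17, Csf1r at 0.09 and Itgam (CD11b) at -0.71. The other Itgam probes gave -0.24 and -0.27, and the other Csf1r probes 0.05 and -0.11. Mertk, Fcgr1 and Cd14 of the same list were at least 2-fold lower, at -1.14, -1.23 and -1.42. The median difference of the 6 macrophage markers was -0.92. Their summed intensity was 198233 in untreated cells and 209022 after IL-4, of which Csf1r alone gave 146026 and 166510. Detection on both arrays was also seen for 5 of 5 matched neutrophil markers, 2 of 5 T cell markers and 1 of 4 B cell markers, with median differences of -0.17, -0.16 and -0.36. The part of other cell types in the Lpl signal was not tested, and in bulk RNA fewer cells of a type and less RNA per cell cannot be told apart.

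Pnpla2 encodes adipose triglyceride lipase, which removes the first fatty acid from triacylglycerol. Its probe read 5914 in untreated cells and 6474 after IL-4. The difference of 0.03 was smaller than the spot SD of 0.049 and close to the median of 0.05 over 1776 probes of like signal. Its sign was negative after quantile normalization (-0.03) and with the percentile taken over probes detected on both arrays (-0.02).

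The coactivator of this lipase, Abhd5 (CGI-58), had 3 probes, all higher after IL-4. They read 751 and 873, 558 and 731, and 537 and 583. Their differences were 0.12, 0.29 and 0.02, each with a spot SD between 0.061 and 0.062, so the middle probe stood above the other pair by more than the spot error. G0s2, the inhibitor of the same lipase, read 124 and 105, with a difference of -0.34 and a spot SD of 0.15. This signal is dim, the software's own error being 12.0% and 12.7% of it, and probes of like signal had a median difference of -0.11. The lipase, its coactivator at the brightest probe and its inhibitor therefore had differences of 0.03, 0.12 and -0.34. That of Pnpla2 lay within the spot error, and so did the dimmest Abhd5 probe at 0.02.

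Lipe encodes hormone-sensitive lipase, which acts on diacylglycerol and on cholesteryl esters. It was detected with a dim signal of 96.0 and 104 (software error 13.1% and 12.6%). Its difference of 0.01 was far below the spot SD of 0.16, so no difference was detectable at this signal. Probes of like signal had a median difference of -0.12, and with normexp background correction Lipe itself was at -0.12.

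Mgll encodes monoacylglycerol lipase, which releases the last fatty acid and also breaks down the endocannabinoid 2-arachidonoylglycerol. Its brightest probe read 1599 in untreated cells and 991 after IL-4, a difference of -0.79 with a spot SD of 0.058. The second probe read 517 and 345, a difference of -0.68, and the third read 480 and 320, also -0.68. The 3 probes were lower by 1.73-fold, 1.61-fold and 1.61-fold, and the first and second are annotated to transcript NM_001166251 and the third to NM_001166250. The fourth probe, also annotated to NM_001166250, read 6.67 and 6.40, was not detected on either array and gives no fold. Of the genes measured on both arrays, 354 (2.78%) had a difference as low as that of Mgll or lower.

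Lipa encodes the acid lipase of the lysosome, which hydrolyses both triacylglycerol and cholesteryl esters taken up with lipoproteins. Its probe read 13330.3 in untreated cells and 10620.3 after IL-4. The difference of -0.43 was larger in size than the spot SD of 0.046, while probes of like signal had a median of 0.05. Of the genes measured on both arrays, 9.49% were as low or lower. The direction of Lpl, Mgll, Lipa and G0s2 was kept under all 11 alternative settings. For Lipa and G0s2, with 1 probe each and no outlier spot, several of these settings could hardly change the value. When the arrays were scaled on spike-in RNA the difference of Lipa was -0.11 and that of G0s2 was -0.024. The latter lies inside the spot SD of 0.15 of G0s2.

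The upstream sequences of Mgll and Lipa, the lipase genes with lower signal after IL-4, are shown because IL-4 acts through DNA-binding factors, STAT6 first among them, and these genes had lower signal at every detected probe. Each is the 250 bases before the annotated transcript start, 5′ to 3′ on the gene's strand, from RefSeq on GRCm38.p6. For Mgll this is chr6:88724162-88724411 on the plus strand, the first of the starts in that table, and for Lipa chr19:34527475-34527724 on the minus strand. Capitals mark an E-box (CACGTG) in Mgll and, in Lipa, TATAAA read on the opposite strand.
Mgll: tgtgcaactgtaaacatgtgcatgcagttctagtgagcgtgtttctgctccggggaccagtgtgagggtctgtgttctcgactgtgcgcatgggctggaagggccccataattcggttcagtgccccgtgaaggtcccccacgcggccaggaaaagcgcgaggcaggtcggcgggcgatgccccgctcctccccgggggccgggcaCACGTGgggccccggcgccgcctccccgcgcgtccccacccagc
Lipa: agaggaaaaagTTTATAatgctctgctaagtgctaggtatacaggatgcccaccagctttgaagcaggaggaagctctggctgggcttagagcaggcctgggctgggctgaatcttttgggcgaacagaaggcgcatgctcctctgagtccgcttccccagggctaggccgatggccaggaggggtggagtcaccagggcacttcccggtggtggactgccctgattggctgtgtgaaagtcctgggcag

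Each motif was searched on both strands in the 250 bases before 9 annotated starts of 7 of the 10 genes (Abhd5, G0s2, Lipa, Lipe, Mgll, Plin3 and Pnpla2) and in 32851 windows of the same length over all genes, and the motifs do not overlap in the sequences shown. The STAT6-type motif TTCNNNNGAA was in 0 of the 9 windows and in 5.85% of all windows. The direct repeat bound by PPAR and RXR, AGGTCANAGGTCA, was in 0 of 9 and in 0.0335% of all. The E-box CACGTG, bound by TFEB, TFE3 and MITF among other factors, was in 2 of 9 windows (Mgll and Lipe) and in 6.02% of all, and its last base lies 39 bases before the start of Mgll. TATAAA was in 1 of 9 (Lipa, its last base 234 bases before the start) and in 12.4% of all. These matches describe letters and show no binding.

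**Figure D2:**
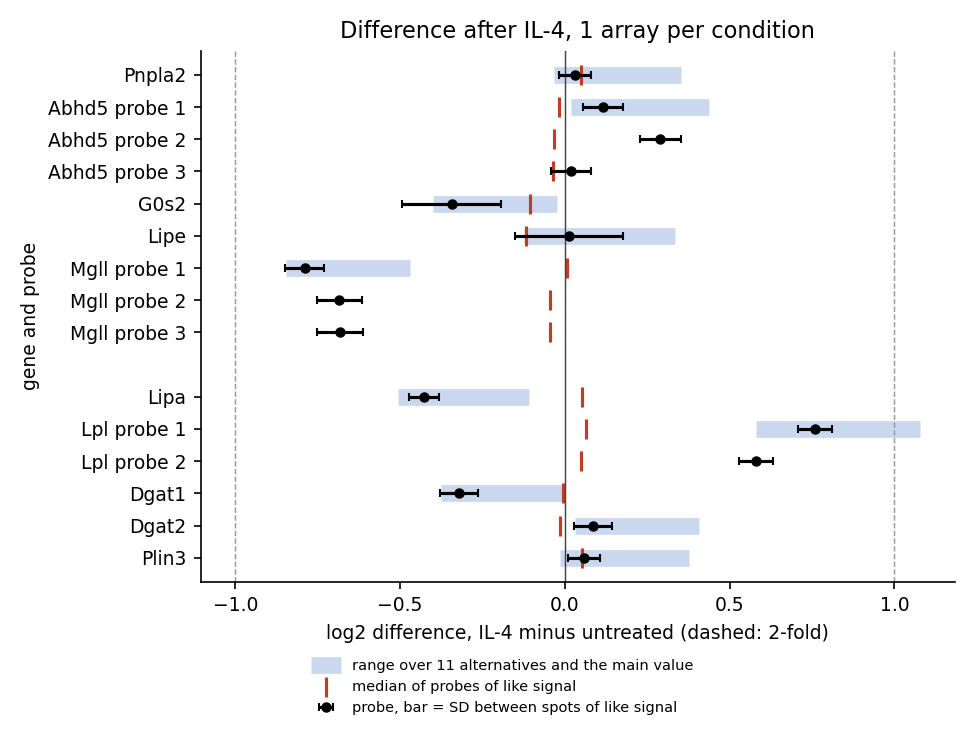
Log2 difference, IL-4 minus untreated, of the 15 probes detected on both arrays (black points), with bars for the SD between spots of probes of like signal. Blue bands span the gene's value over 11 alternatives and the main setting, red ticks mark the median of probes of like signal, and dashed lines mark 2-fold. The bands of Pnpla2, Lipe and Plin3 cross 0 and those of the other genes do not, although that of Dgat1 reaches -0.0016, that of Abhd5 0.019 and that of G0s2 -0.024. Only the band of Lpl crosses a dashed line.

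Dgat1 and Dgat2 encode unrelated enzymes that each carry out the last step of triacylglycerol synthesis. Dgat1 read 1114 in untreated cells and 955 after IL-4, a difference of -0.32 with a spot SD of 0.057. Dgat2 read 845 and 961, a difference of 0.09 with a spot SD of 0.059. The differences of the 2 isoenzymes had opposite signs, Dgat1 being lower by more than the spot error and Dgat2 higher by slightly more than it. With spike-in scaling, where the median over all genes was 0.31, Dgat1 had a difference of -0.0016 and Dgat2 of 0.41. Plin3 (TIP47), a perilipin that moves from the cytosol onto nascent droplets, read 7961 and 8878. Its difference of 0.06 had a spot SD of 0.048 and equalled the median of 0.05 over probes of like signal to within that error, and after quantile normalization it was -0.02.

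**Figure D3:**
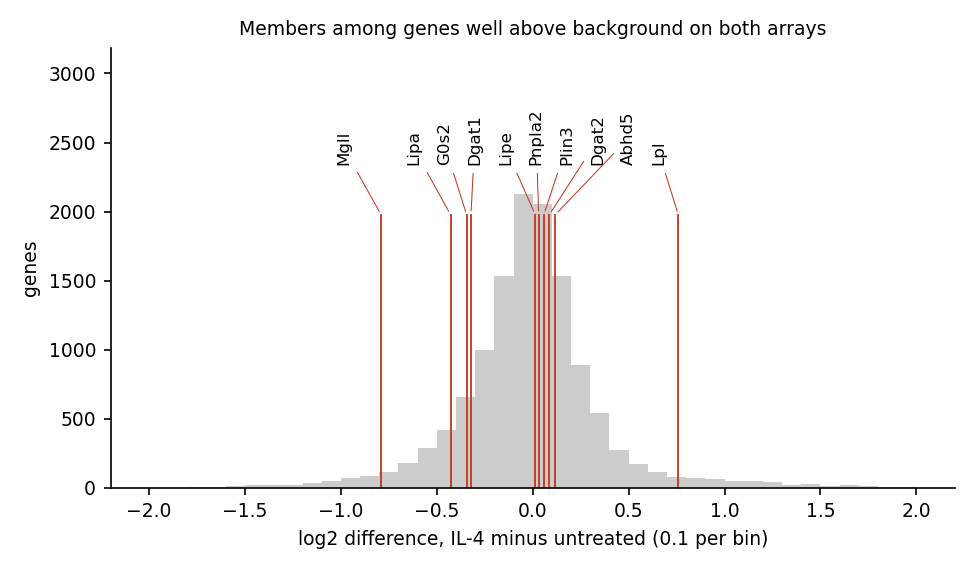
Histogram of the log2 difference, IL-4 minus untreated, of the 12741 genes detected on both arrays (64 beyond 2 in size are outside the axis), with red lines at the 10 genes. Lipe, Pnpla2, Plin3, Dgat2 and Abhd5 lie in the central peak, Dgat1, G0s2 and Lipa on its left shoulder, and Mgll and Lpl in the opposite tails.

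Over the 10 genes the differences ran from -0.79 to 0.76 with a median of 0.02, 6 above and 4 below 0. Over all genes measured on both arrays the median was -0.014, with 6080 above and 6661 below. In order of difference the genes were Mgll, Lipa, G0s2, Dgat1, Lipe, Pnpla2, Plin3, Dgat2, Abhd5 and Lpl. The neighbours Lipa, G0s2 and Dgat1 lay within 0.15 of each other, which is the spot SD of G0s2. The neighbours from Lipe to Abhd5 likewise lay within the spot SD of Lipe. G0s2 and Lipe are dim, and the brighter genes had smaller spot SDs. Lipa and Dgat1 (-0.43 and -0.32, spot SD 0.046 and 0.057) lay further apart than the spot SD of either. So did Pnpla2 and Abhd5 (0.03 and 0.12, spot SD 0.049 and 0.061). Mgll and Lpl each stood apart from their neighbour by more than the spot SD of either gene. As a check of the labels, Arg1, an IL-4 target, read 84.9 and 19688, and Pparg, the nuclear receptor that has Lpl among its known targets, was 2.12-fold higher. Cd36 and Fabp4, other known targets of Pparg, were 1.26-fold and 1.03-fold higher.

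The rest of the pathway was read from 6 lists of 77 genes, of which 76 had a probe, 59 were measured on both arrays, 4 were detected on 1 array and 13 on neither. Past 2-fold, 2 were higher and 2 lower, which as shares of those detected lie near the 3.06% and 3.35% over all genes, and the median over the 59 was -0.07. Among 11 other droplet coat and droplet formation proteins 0 passed 2-fold in either direction, with a median of -0.07 over 6. Plin2, the main perilipin of macrophages, was the lowest of them at -0.47, from 39900.5 to 30926, and Plin4 the highest at 0.37, from 1092 to 1512.

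Among 17 other acylglycerol and cholesteryl ester hydrolases 1 was at least 2-fold higher and 0 lower, with a median of -0.16 over 10. The higher one was Ddhd1, an intracellular phospholipase, which read 130 and 377, a difference of 1.44 that was 0.92 with normexp background correction. Pnpla7, a lysophospholipase, was the lowest at -0.54. Further enzymes of monoacylglycerol turnover were singled out after their values were seen. Daglb and Dagla, which make 2-arachidonoylglycerol, had differences of 0.53 and 0.38. Abhd12, which degrades monoacylglycerols and lysophosphatidylserine, was at -0.42, and Abhd6, another monoacylglycerol hydrolase, at -0.28 with a spot SD of 0.20 on a dim probe. Its dimmer probe, detected after IL-4 only, gave a bound of at least 0.12. Nceh1, the neutral cholesteryl ester hydrolase of macrophages, was at -0.33.

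Among 20 other enzymes of triacylglycerol and steryl ester synthesis 0 were at least 2-fold higher and 2 lower, with a median of -0.07 over 17. Lpin2, a phosphatidate phosphatase that supplies diacylglycerol, read 932 and 378, a difference of -1.40, or 2.64-fold lower. Mogat1, which makes diacylglycerol from monoacylglycerol, read 110 in untreated cells and was not detected after IL-4, so it was at least 4.21-fold lower. On the log2 scale this bound is -2.08, and it was -1.22 with normexp and -1.79 with quantile normalization. Soat2, a cholesterol acyltransferase, had the highest difference of this list at 0.84, from 240 to 461.

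Among 10 genes of the cAMP control of lipolysis 0 passed 2-fold in either direction, with a median of -0.18. Pde3b, the phosphodiesterase that lowers cAMP in response to insulin, was the lowest at -0.96, from 1757 to 969, and Hcar2, a receptor that inhibits lipolysis, the highest at 0.55 with a spot SD of 0.25, from 43.4 to 68.0. Among 8 genes of lysosomal lipid exit and its transcription factors 1 was at least 2-fold higher and 0 lower, with a median of 0.10. This was Mitf, a factor of the TFEB family that activates lysosomal genes, whose probes read 5989 and 14391, and 1840.1 and 3897, for differences of 1.17 and 0.98. Npc2, the lysosomal cholesterol carrier, was the lowest at -0.22.

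**Figure D4:**
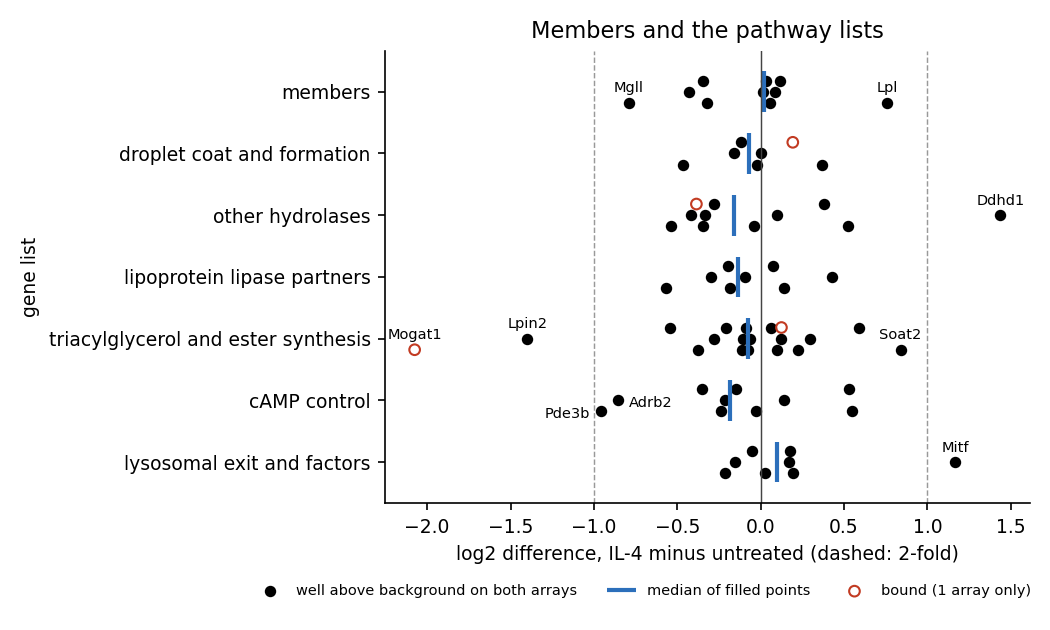
Log2 difference, IL-4 minus untreated, of the 10 members and of the genes of 6 pathway lists, 1 point per gene. Filled points were detected on both arrays, open circles are bounds, blue lines are medians of the filled points, and dashed lines mark 2-fold, which only Ddhd1, Mitf, Lpin2 and Mogat1 pass.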

How the data were processed

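RNA of untreated BMDMs and of BMDMs given IL-4 for 18 h was measured on 1 array each. The authors deposited scanner files of Feature Extraction 10.10.1.1, whose intensity values are background-subtracted and detrended within an array and not scaled between arrays. Deposited marks for spots well above background, outliers and controls were used as given. A second deposited table holds log2 values processed by the authors, with column medians of 0.161 (untreated) and 0.0160 (IL-4). Its differences matched the scaled differences of the main setting within 0.000565 at the 16 probes used here, and not the unscaled ones. For Lpl the table gave 0.7596, against 0.7591 in the main setting and 0.8587 with no scaling. This gives its log2 scale, its direction and its scaling between the arrays, while any centring shared by both columns is unknown.

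Spots flagged as outliers were left out, spots of a probe were averaged as log2 values, and each array was scaled by subtracting its 75th percentile (9.84 untreated, 9.94 IL-4). On the arrays 59.8% and 57.4% of 43020 gene spots were well above background. Probes were named through RefSeq accessions of GRCm38.p6, whereas the array was annotated on mm9, and 27223 of 39424 probes matched 20652 genes. A probe detected on 1 array only gave a bound, set on the dim side at its own value or at the array's lowest detected value, whichever was higher, and no fold where that bound changed direction. The spot SD came from probes of 10 spots within 1 log2 unit, and like signal means within 0.5.

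No test was run, since there was 1 array per condition, and this number sets the precision. All 10 genes, all lists with their 2-fold, lowest and highest genes, and cell markers were read. The genes, lists and motifs were chosen with earlier results of these data known. Counting of changed probes was tested on simulated data, in which only bright probes were changed, and by well over 2-fold. It did not test changes of dim probes, bounds or changes near 2-fold. Alternatives were 6 other scalings, the authors' table, normexp, kept outlier spots, other probe rules, filters and cutoffs. Scripts ran in Python 3.11.15 with pandas 2.3.3 and numpy 2.4.6, and limma 3.58.1 in R 4.3.3 gave the normexp, quantile and cyclic loess values.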

Additional observations from a re-analysis of the deposited data

How the results depend on the processing

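No paired analysis was possible because there is 1 array for untreated and 1 for IL-4-treated cells. Of the 10 genes, 7 kept their sign under all 11 alternatives run, and the exceptions were Pnpla2, Lipe and Plin3. Some of these alternatives could hardly move a value, so the count of 11 overstates the check. The authors' table matches the main differences within 0.000565, and no spot of these genes was marked as an outlier. The other probe rules leave a gene with 1 probe unchanged, as 7 of the 10 are. With median scaling the median over all genes detected on both arrays went from -0.014 to 0.20, with no scaling to 0.086 and with spike-in scaling to 0.31, so these move every gene up together, and the median over the 10 genes went from 0.02 to 0.24, 0.12 and 0.34 with them and to -0.038 with normexp. Plin3 was -0.015 after quantile normalization. Over all settings Lpl lay between 0.58 and 1.08, Mgll between -0.84 and -0.47, Lipa between -0.51 and -0.11, G0s2 between -0.40 and -0.024, Dgat1 between -0.38 and -0.0016, Dgat2 between 0.031 and 0.41, and Abhd5 between 0.019 and 0.44. Genes of the 10 at least 2-fold higher numbered 1 (Lpl) with spike-in scaling, and at a 1.5-fold cutoff 1 was higher and 1 lower. For the pathway lists, genes at least 2-fold higher numbered 1 with normexp, 1 with the dimmest probe of a gene, 3 with median and with spike-in scaling (Soat2 added at 1.05 and 1.16), 4 at 1.5-fold and 0 at 4-fold, and genes at least 2-fold lower numbered 1 with both arrays required, 3 with the percentile over detected probes (Pde3b added at -1.01), 3 with the authors' values, 4 with no filter, 4 at 1.5-fold and 1 at 4-fold. The filters and cutoffs change counts by construction. Ddhd1 fell below 2-fold with normexp, at 0.92, and Mitf did so at its dimmer probe, at 0.98. No bound was applied to the authors' values, so Aadac was added there, at -2.69 without a bound and -0.39 with it. The scalings that subtract a constant from each array shift every gene alike by construction. Why normexp, quantile normalization and cyclic loess moved the values was not tested. Signal over background limits Lipe and G0s2, and with 1 array per condition the spread between cultures is unknown.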
